A study of Homo sapiens with 14 samples.

Results

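Cadherins and the transcription factors of the epithelial-mesenchymal transition (EMT) were followed here as a set of 10 genes of the 62757 in the count tables. The genes were CDH1, CDH2, EPCAM, VIM, ZEB1, ZEB2, SNAI1, SNAI2, TWIST1 and GRHL2, chosen by name and matched by Ensembl ID, and all 10 were found. RNA had been sequenced in 14 libraries, 2 in each of 7 groups. Of A2780, a human ovarian cancer line, there were A2780-DDP, a derivative made resistant to cisplatin (DDP), and its parental cells, labelled WT. Of OVCAR3, a second human ovarian cancer line, there were libraries labelled OVCAR3-DDP and parental cells, likewise labelled WT. The remaining groups carried the label OVCAR3-DDP together with a short hairpin RNA: sh1 and sh2, which target ADAR1, and shNC, used as their control. ADAR1, the product of ADAR, is an enzyme that edits double-stranded RNA by turning adenosine into inosine, and the study was built to ask what RNA editing has to do with platinum resistance. The labels do not say at what dose or for how long cisplatin was given, whether a derivative was 1 clone, or whether the cisplatin was present at harvest. They also do not say whether the 2 libraries of a group came from separate cultures, so the p-values cover only how far these samples varied, and that variation may be technical.

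In an epithelial sheet, E-cadherin (CDH1) and EPCAM hold neighbouring cells together, and GRHL2, a grainyhead-like transcription factor, keeps such epithelial genes on. In EMT the cells lose those contacts and gain N-cadherin (CDH2) and vimentin (VIM), an intermediate filament protein of mesenchymal cells. The zinc finger proteins Snail (SNAI1) and Slug (SNAI2), the zinc finger and homeobox proteins ZEB1 and ZEB2, and the basic helix-loop-helix protein TWIST1 can repress CDH1, several of them by binding an E-box in its promoter. MicroRNAs of the miR-200 family in turn repress ZEB1 and ZEB2 through sites in their messenger RNAs.

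The miR-200 family is shown because its members fall into classes by seed, the bases 2 to 8 that pair with a target, given in capitals. Mature sequences are from RefSeq (GRCh38.p14), in RNA letters. The first 3 share the seed AAUACUG and the other two AACACUG.
hsa-miR-200b-3p: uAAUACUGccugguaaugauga
hsa-miR-200c-3p: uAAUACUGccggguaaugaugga
hsa-miR-429: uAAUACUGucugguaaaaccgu
hsa-miR-200a-3p: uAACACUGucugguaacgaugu
hsa-miR-141-3p: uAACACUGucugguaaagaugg
These libraries do not measure mature microRNAs. The host transcript of miR-200c and miR-141, MIR200CHG, was at 0 to 2 counts per library, with 4 counts in a total of 420930485, and the 5 hairpin genes were at 0 counts in every library.

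Promoter windows of ZEB1, ZEB2 and CDH2 are shown because these genes moved apart in the comparisons that follow. Windows run from 250 bases before to 50 bases after the RefSeq start site (GRCh38.p14). Windows were found for 4 of the 10 genes, the fourth being VIM. The E-box CAGGTG and its reverse complement CACCTG were searched on both strands, and a match is in capitals.
ZEB1, chr10:31318167-31318466, plus strand: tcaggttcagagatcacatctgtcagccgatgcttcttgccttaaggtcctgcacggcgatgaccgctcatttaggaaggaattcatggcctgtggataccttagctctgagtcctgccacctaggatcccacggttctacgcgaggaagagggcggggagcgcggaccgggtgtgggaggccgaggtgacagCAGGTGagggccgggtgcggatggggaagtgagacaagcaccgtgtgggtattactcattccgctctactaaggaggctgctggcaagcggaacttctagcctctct
ZEB2, chr2:144520070-144520369, minus strand: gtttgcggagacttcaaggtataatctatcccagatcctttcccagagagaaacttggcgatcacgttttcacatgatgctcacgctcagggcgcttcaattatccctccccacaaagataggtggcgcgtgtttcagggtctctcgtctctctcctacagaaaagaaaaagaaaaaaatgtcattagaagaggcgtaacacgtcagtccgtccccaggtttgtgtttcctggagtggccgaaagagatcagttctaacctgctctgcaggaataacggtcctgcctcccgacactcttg
CDH2, chr18:28177081-28177380, minus strand: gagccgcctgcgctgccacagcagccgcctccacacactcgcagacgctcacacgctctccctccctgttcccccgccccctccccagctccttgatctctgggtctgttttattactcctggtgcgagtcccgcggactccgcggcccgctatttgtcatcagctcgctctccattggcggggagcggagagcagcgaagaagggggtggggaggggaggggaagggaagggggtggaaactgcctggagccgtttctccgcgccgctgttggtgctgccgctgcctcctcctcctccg
The ZEB1 window held 1 match, 57 bases before the start site, and the ZEB2, CDH2 and VIM windows held none. Of 35116 windows of the same length, 20.6% hold the motif. Of the 7 windows that RefSeq starts give for ZEB1, 2 hold it.

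Each library had between 20428538 and 49115255 counts in genes, and the unit of level is CPM, which divides a count by its library total so that libraries can be compared. Mitochondrial messenger RNA made up 0.726% to 0.947% of assigned counts in the 6 hairpin libraries and 2.31% to 3.51% in the other 8. ADAR, the targeted gene, was at 116 and 114 CPM in sh2, at 289 and 254 CPM in sh1, and at 447 and 399 CPM in shNC. It was lower than in shNC by log2 −1.99 in sh2 (SE 0.11, edgeR adjusted p = 2.07e-09) and by log2 −0.71 in sh1 (SE 0.11, edgeR adjusted p = 0.00123).

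The cell type labels were set against marker genes before the comparisons. A list of 8 ovarian carcinoma markers summed to 22.1 and 23.2 CPM in libraries labelled OVCAR3-DDP, against 1726 and 1848 CPM in parental OVCAR3. The same list summed to 2504 and 2717 CPM in shNC, which carries the OVCAR3-DDP label too. In A2780-DDP it summed to 4.94 and 5.42 CPM and in parental A2780 to 12.2 and 12.98 CPM. EPCAM, a member, is on this list, at 3.11 and 3.54 CPM in A2780-DDP and 10.4 and 10.9 CPM in parental A2780. The sums in A2780 are therefore mostly EPCAM itself. In libraries with an OVCAR3 label EPCAM was at 21.4 CPM at most. The libraries labelled OVCAR3-DDP thus stood apart from every other library with an OVCAR3 label, and they are named by their label throughout. Not every marker on the list went that way: of 7 tested, 6, EPCAM among them, were lower and 1 higher in libraries labelled OVCAR3-DDP. The one that was higher, WT1, was at 18.7 and 19.3 CPM in libraries labelled OVCAR3-DDP, and at 0 counts in parental OVCAR3 and in shNC. SOX17 was at 0 counts in all 3 of these groups. Leukocyte markers summed to at most 6.91 CPM and endothelial markers to at most 3.09 CPM in any library. A list of 9 fibroblast markers summed to 625 and 649 CPM in A2780-DDP, against 552 and 578 CPM in parental A2780. It summed to 115 and 123 CPM in libraries labelled OVCAR3-DDP, against 80.1 and 83.3 CPM in parental OVCAR3. In the hairpin libraries it summed to between 116 and 149 CPM. Of the 9 genes, 2 were called higher and 4 lower in libraries labelled OVCAR3-DDP, where 33.4% and 35.2% of all genes tested were. In A2780-DDP 3 were called higher and 2 lower, where 18% and 17.3% of all genes tested were. COL1A2, PDGFRA and FAP, on that list, were each at 0 counts in at least 1 group. The part of these markers in the members' levels was not tested. In bulk RNA, fewer cells of a kind and less RNA per cell cannot be told apart.

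On the epithelial side, CDH1 and GRHL2 were close to absent from every library. CDH1 (ENSG00000039068.20; GRCh38, GENCODE 29, chromosome 16, 68737225 to 68835548, plus strand) had 0 and 1 counts in A2780-DDP and 0 and 2 in parental A2780. It had 7 and 2 counts in libraries labelled OVCAR3-DDP and 9 and 7 in parental OVCAR3, which is 0.251 CPM at most. The sh2 libraries had 0 and 0 counts, sh1 0 and 2, and shNC 0 and 0. Against parental OVCAR3, CDH1 in shNC was at least 2.93-fold lower, taking 3 counts over the group as the limit that a count of 0 allows. The parental OVCAR3 libraries held 16 CDH1 reads of 84979910. These counts describe the libraries that carry the label, and whether they are typical of OVCAR3 was not tested. GRHL2 (ENSG00000083307.12; chromosome 8, 101492432 to 101669726, plus strand) had 4 counts in 1 of the libraries labelled OVCAR3-DDP, 1 count in 1 shNC library and 0 counts in the other 12 libraries. At 0 of 84979910 counts in parental OVCAR3, a level of up to 0.0353 CPM is possible. CDH1 and GRHL2 fell under the count filter in every fit and were not tested, which left 8 members. The GRHL2 limit, and folds given as at least here and later, allow only for counting error in the group at 0 counts. The count in the other group is taken as observed. The count intervals that follow cover counting error only.

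The remaining members were expressed at very different levels, which can be compared between genes only per length. Per kilobase of exon in GENCODE 29, VIM was the highest member in all 7 groups, at 1132 CPM per kb in A2780-DDP and 1101 in parental A2780, and at 161 in libraries labelled OVCAR3-DDP and 197 in parental OVCAR3. CDH2 was next in every group with an OVCAR3 label, at 18.9 CPM per kb in libraries labelled OVCAR3-DDP and 56.2 in parental OVCAR3. In A2780-DDP the next was TWIST1 at 18.5 CPM per kb, and in parental A2780 it was EPCAM at 4.23. ZEB2, with the longest annotated exons of the set, reached 1.44 CPM per kb at most, in parental A2780.

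**Figure D1:**
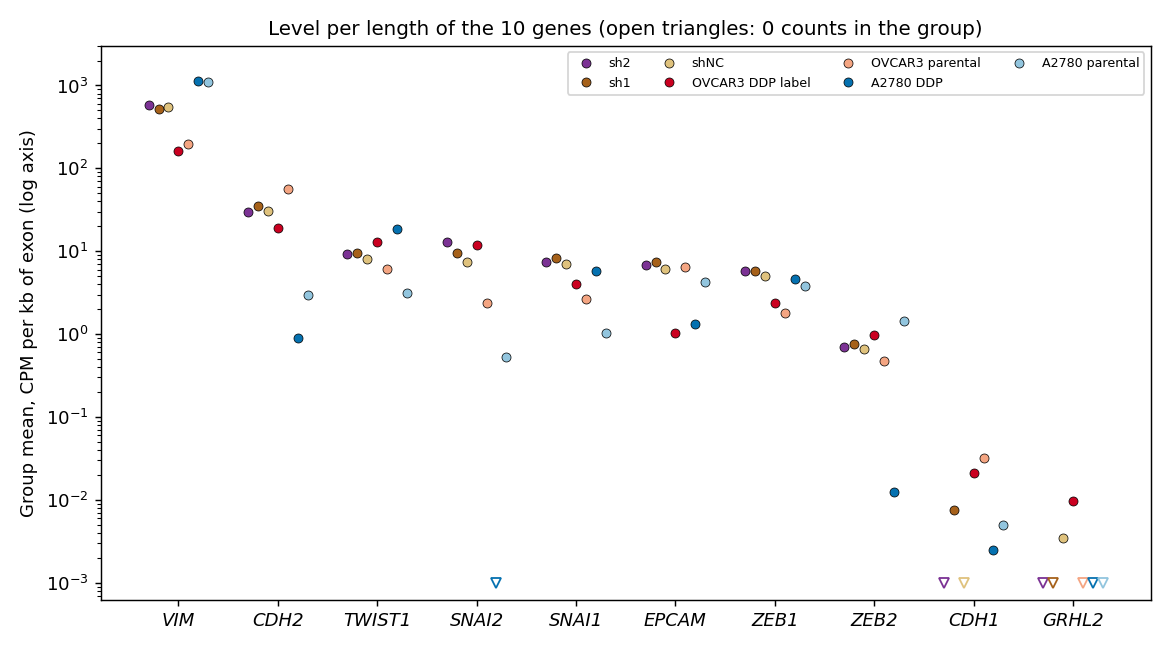
Mean level of the 10 genes per kb of exon (CPM per kb, log axis) in each of the 7 groups, 1 point per group, with open triangles for groups at 0 counts. VIM lies above the other members in every group, and CDH1 and GRHL2 lie at the bottom, with ZEB2 and SNAI2 in A2780-DDP near them.

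A2780-DDP was compared with parental A2780 to ask what the members did in a line made resistant to cisplatin. ZEB2 and SNAI2 were nearly or wholly lost in A2780-DDP, while SNAI1 and TWIST1 were several times higher. The cell-surface genes CDH2 and EPCAM were both lower. ZEB1 and VIM did not pass the test. Of the 8 members tested, edgeR called 2 higher and 4 lower at an adjusted p under 0.05, where 18% and 17.3% of all 23031 genes tested were called higher and lower (35.3% in all). The members' median log2 fold change was −0.81, also with SNAI2 set to its bound, and that of all genes tested was 0. Mitochondrial messenger RNA was also lower, at 2.31% and 2.55% of counts in A2780-DDP, against 3.40% and 3.51% in parental A2780, with 11 of 13 such genes called lower and 1 higher. Its part in the members' changes was not tested.

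ZEB2 (ENSG00000169554.23; chromosome 2, 144364364 to 144524583, minus strand), a repressor of epithelial genes, was at 0.261 and 0.366 CPM in A2780-DDP, 9 and 12 counts, against 37.9 and 34.4 CPM in parental A2780. The parental libraries had the highest ZEB2 levels of the 14 and the resistant ones the lowest. Mean CPM was 115-fold lower in A2780-DDP, with a 95% interval from counting of 75.5 to 187 for the pooled ratio. The fitted log2 fold change was −6.83 (SE 0.26, edgeR adjusted p = 4.90e-10), a larger change than in 99.0% of genes tested. SNAI2 (ENSG00000019549.13; chromosome 8, 48917604 to 48921740, minus strand), which encodes Slug, had 0 counts in both A2780-DDP libraries, against 1.83 and 1.80 CPM, 57 and 59 counts, in parental A2780. It was therefore at least 40.7-fold lower in A2780-DDP, against 3 counts over the group, and passed the test (edgeR adjusted p = 3.38e-07). Parental A2780 had the lowest SNAI2 of the groups in which it was detected.

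SNAI1 (ENSG00000124216.4; chromosome 20, 49982999 to 49988886, plus strand), which encodes Snail, was at 10.8 and 8.66 CPM in A2780-DDP, against 1.92 and 1.59 CPM in parental A2780. Its log2 fold change was 2.48 (SE 0.22, edgeR adjusted p = 1.51e-06). TWIST1 (ENSG00000122691.13; chromosome 7, 19020991 to 19117672, minus strand) was at 38.5 and 36.6 CPM in A2780-DDP, against 5.71 and 6.88 CPM in parental A2780, a log2 fold change of 2.59 (SE 0.13, edgeR adjusted p = 7.62e-09). The groups did not overlap for either factor, and A2780-DDP had the highest TWIST1 of any group. ZEB1 (ENSG00000148516.23; chromosome 10, 31318495 to 31529814, plus strand) was at 35.8 and 44.1 CPM in A2780-DDP, against 33.8 and 31.5 CPM in parental A2780. Its log2 fold change of 0.30 (SE 0.12) missed the threshold with an edgeR adjusted p of 0.0734. In the fit of all 14 libraries it passed, with an edgeR adjusted p of 0.0469. Without A2780-DDP replicate 1 the log2 fold change was 0.47. Within the ZEB pair, the 2 paralogs thus had very different values in the same libraries.

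CDH2 (ENSG00000170558.10; chromosome 18, 27950966 to 28177446, minus strand) was at 4.40 and 4.36 CPM in A2780-DDP, against 14.6 and 14.7 CPM in parental A2780, a log2 fold change of −1.73 (SE 0.11, edgeR adjusted p = 4.83e-08). These were the lowest CDH2 levels of the series in both groups. EPCAM (ENSG00000119888.11; chromosome 2, 47345158 to 47387601, plus strand) was at 3.54 and 3.11 CPM in A2780-DDP, against 10.9 and 10.4 CPM in parental A2780, a log2 fold change of −1.67 (SE 0.17, edgeR adjusted p = 4.75e-06). An epithelial and a mesenchymal surface gene were therefore lower together. VIM (ENSG00000026025.16; chromosome 10, 17228259 to 17237593, plus strand) was at 6081 and 5599 CPM in A2780-DDP, against 5571 and 5791 CPM in parental A2780. Its libraries overlapped, and the log2 fold change was 0.05 (SE 0.10, edgeR adjusted p = 0.755).

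**Figure D2:**
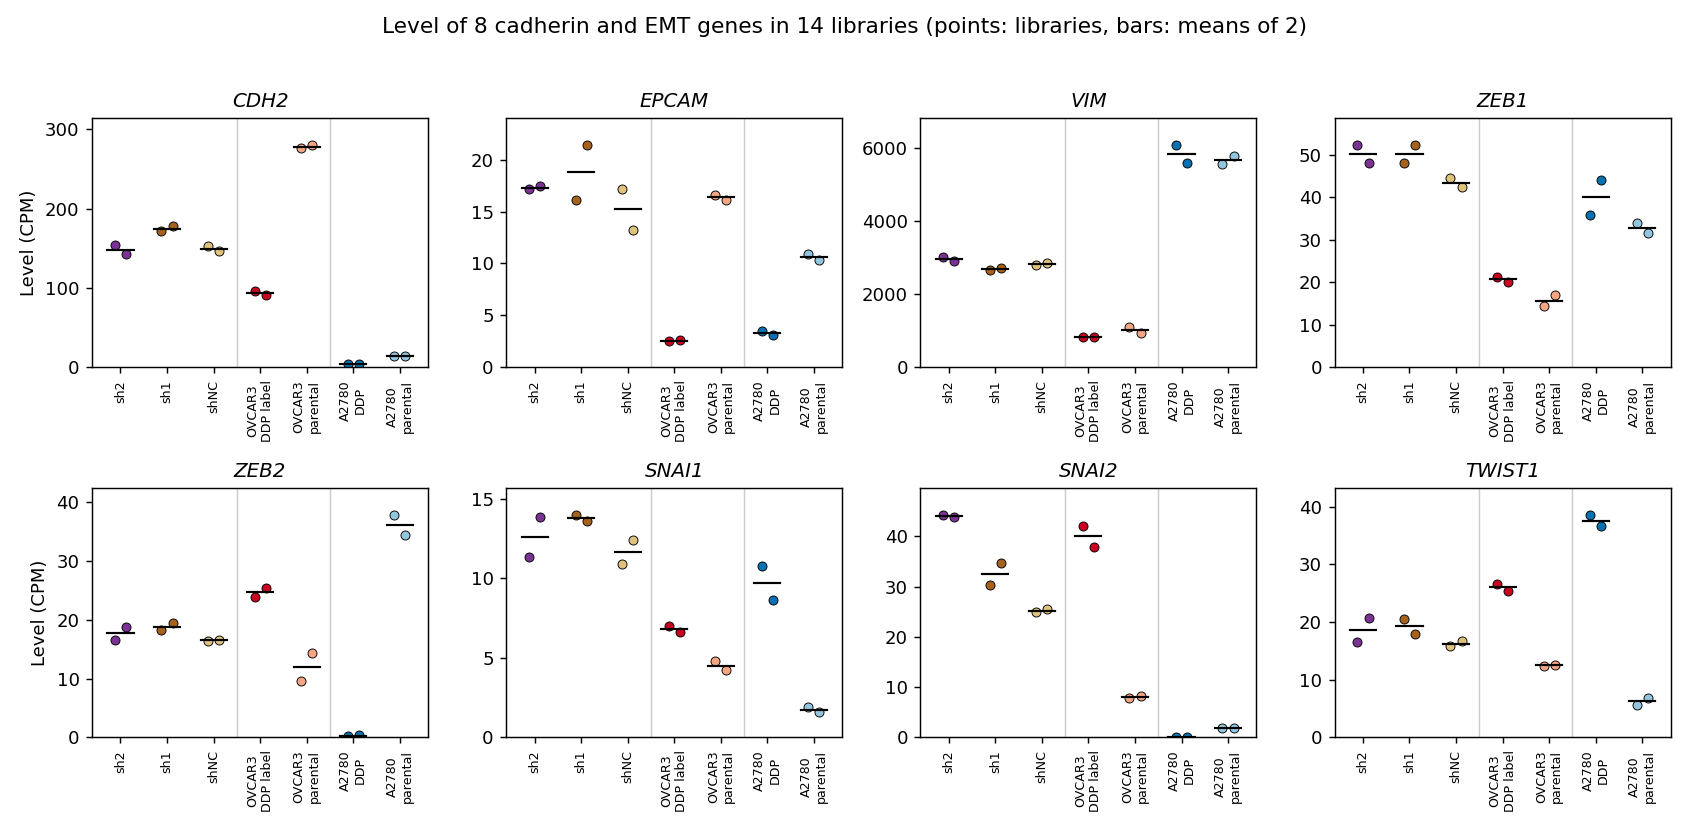
Level in CPM (linear axes from 0) of the 8 members above the count filter, with 1 point per library and a bar at the mean of 2. In A2780-DDP, ZEB2 stood at 0.261 and 0.366 CPM and SNAI2 at 0, while SNAI1 and TWIST1 stood above parental A2780.

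The libraries labelled OVCAR3-DDP were compared with parental OVCAR3 as the same contrast in the second line. SNAI2, TWIST1 and ZEB2 were higher, and EPCAM, CDH2 and VIM lower, in libraries labelled OVCAR3-DDP. ZEB1 and SNAI1 were not called. Of 8 members tested, edgeR thus called 3 higher and 3 lower, where 33.4% of all genes tested were called higher and 35.2% lower (68.5% in all). The members' median log2 fold change was 0.32, against −0.03 over all genes tested. With 68.5% of all genes called, 6 of 8 members is close to the background, and the marker sums show that these 2 groups differed in much besides. The part of that wider difference in the members' changes was not tested.

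SNAI2 was at 42.0 and 38.0 CPM in libraries labelled OVCAR3-DDP, against 7.78 and 8.18 CPM in parental OVCAR3, a log2 fold change of 2.15 (SE 0.14, edgeR adjusted p = 3.62e-08). TWIST1 was at 26.6 and 25.5 CPM there, against 12.4 and 12.6 CPM in parental OVCAR3 (log2 0.88, SE 0.12, edgeR adjusted p = 2.37e-05). ZEB2 was at 23.9 and 25.5 CPM in libraries labelled OVCAR3-DDP, against 9.65 and 14.3 CPM in parental OVCAR3 (log2 0.86, SE 0.16, edgeR adjusted p = 3.07e-04). For none of these 3 factors did the groups overlap, and SNAI2, which was lost in A2780-DDP, showed the largest rise.

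SNAI1 was at 7.01 and 6.62 CPM in libraries labelled OVCAR3-DDP, against 4.80 and 4.23 CPM in parental OVCAR3 (log2 0.42, SE 0.20, edgeR adjusted p = 0.0766). ZEB1 was at 21.2 and 20.1 CPM there, against 14.4 and 17.0 CPM in parental OVCAR3 (log2 0.22, SE 0.13, edgeR adjusted p = 0.138). Neither pair of groups overlapped in CPM. Both genes passed under upper-quartile scaling, with edgeR adjusted p = 0.0258 for SNAI1 and 0.0256 for ZEB1, and with a filter of 5 CPM (0.0213 and 0.0371). They also passed in the fit of all 14 libraries (0.0260 and 0.0446), the fit used for shNC over parental OVCAR3. SNAI1, but not ZEB1, passed when only the compared groups were fitted (0.0437). With all libraries kept, SNAI1 stayed uncalled in 5 of 9 other settings and ZEB1 in 6 of 9. SNAI1 also passed without parental OVCAR3 replicate 1, with an edgeR adjusted p of 0.0470.

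CDH2 was at 96.7 and 90.5 CPM in libraries labelled OVCAR3-DDP, against 276 and 280.2 CPM in parental OVCAR3 (log2 −1.75, SE 0.09, edgeR adjusted p = 1.10e-09). EPCAM was at 2.52 and 2.61 CPM there, against 16.6 and 16.1 CPM in parental OVCAR3 (log2 −2.85, SE 0.17, edgeR adjusted p = 6.34e-09). VIM was at 819.7 and 841 CPM in libraries labelled OVCAR3-DDP, against 1103 and 929.6 CPM in parental OVCAR3 (log2 −0.47, SE 0.10, edgeR adjusted p = 9.33e-04). The 3 genes were lower in both libraries, vimentin by much less than the other two.

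**Figure D3:**
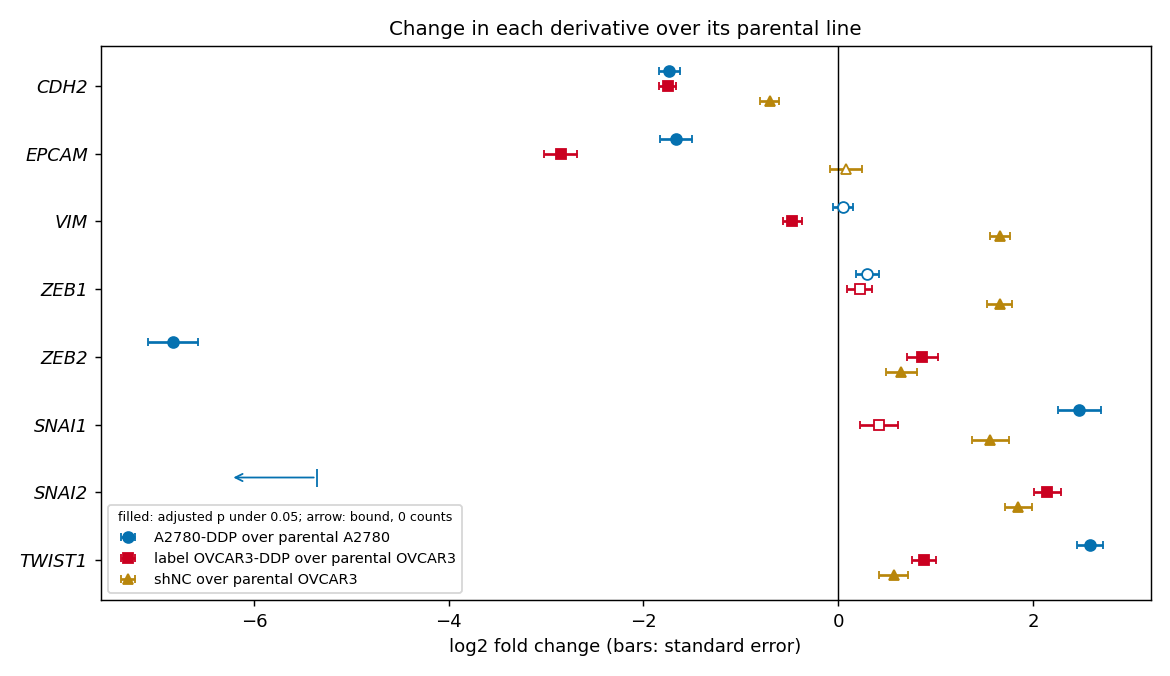
log2 fold change with its standard error for 8 members in A2780-DDP over parental A2780, in libraries labelled OVCAR3-DDP over parental OVCAR3, and in shNC over parental OVCAR3. Filled symbols passed an edgeR adjusted p under 0.05, and the arrow marks the bound of at least 40.7-fold lower for SNAI2 in A2780-DDP. CDH2 lies left of 0 in all 3, while ZEB2 and SNAI2 lie on opposite sides in the 2 lines.

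The difference between the 2 lines was tested as an interaction, the OVCAR3 change less the A2780 change. It was called for 6 of the 8 members, 2 positive and 4 negative, where 53.8% of all genes tested were called (26.9% in each direction). ZEB2 differed by log2 7.69 (SE 0.31, edgeR adjusted p = 3.24e-10), since it was higher in libraries labelled OVCAR3-DDP and almost lost in A2780-DDP. SNAI2 went the same ways (edgeR adjusted p = 8.09e-09), and its fitted size rests on the 0 counts in A2780-DDP. SNAI1 differed by log2 −2.06 (SE 0.29, edgeR adjusted p = 5.35e-05) and TWIST1 by log2 −1.71 (SE 0.18, edgeR adjusted p = 2.77e-06), both with the larger rise in A2780-DDP. EPCAM differed by log2 −1.18 (SE 0.24, edgeR adjusted p = 8.14e-04), with the larger fall in libraries labelled OVCAR3-DDP. VIM differed by log2 −0.52 (SE 0.14, edgeR adjusted p = 0.00695), a call that ended without parental A2780 replicate 1, at an adjusted p of 0.0573. For CDH2 the difference was log2 −0.02 (SE 0.14, edgeR adjusted p = 0.982), and for ZEB1 −0.08 (SE 0.18, edgeR adjusted p = 0.759). Because the libraries labelled OVCAR3-DDP stood apart, the interaction was repeated with shNC in their place, a choice made after seeing the data. EPCAM then differed by log2 1.72, VIM by 1.59, ZEB1 by 1.33 and CDH2 by 1.00, each passing the test and each with the sign turned, while ZEB2 at 7.45, SNAI1 at −0.94 and TWIST1 at −2.04 kept theirs.

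The shNC libraries carry the OVCAR3-DDP label together with a control hairpin, and were set against parental OVCAR3 with that second version of the label. ZEB1, ZEB2, SNAI1, SNAI2 and TWIST1 were higher in shNC, and vimentin with them, while CDH2 was lower and EPCAM was not called. Of 8 members tested, edgeR called 6 higher and 1 lower, where 25.1% of 24193 genes tested were called higher and 26.5% lower (51.5% in all). The members' median log2 fold change was 1.11, against 0 over all genes tested. The comparison shares its parental libraries with the one before. Vimentin was at 2796 and 2846 CPM in shNC, against 1103 and 929.6 CPM in parental OVCAR3 (log2 1.66, SE 0.10, edgeR adjusted p = 9.78e-13). ZEB1 was at 44.5 and 42.3 CPM in shNC, against 14.4 and 17.0 CPM in parental OVCAR3 (log2 1.66, SE 0.13, edgeR adjusted p = 1.06e-10). SNAI2 was at 24.9 and 25.6 CPM in shNC, against 7.78 and 8.18 CPM in parental OVCAR3 (log2 1.85, SE 0.14, edgeR adjusted p = 8.79e-11). In none of the 3 did the groups overlap.

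SNAI1 was at 10.9 and 12.4 CPM in shNC, against 4.80 and 4.23 CPM in parental OVCAR3 (log2 1.56, SE 0.19, edgeR adjusted p = 2.35e-07). TWIST1 was at 15.8 and 16.7 CPM in shNC, against 12.4 and 12.6 CPM in parental OVCAR3 (log2 0.57, SE 0.15, edgeR adjusted p = 0.00271). ZEB2 was at 16.4 and 16.7 CPM in shNC, against 9.65 and 14.3 CPM in parental OVCAR3 (log2 0.65, SE 0.16, edgeR adjusted p = 0.00154). Its call rests on the parental library at 9.65 CPM, without which the adjusted p was 0.0516. CDH2 was at 152 and 147 CPM in shNC, against 276 and 280.2 CPM in parental OVCAR3 (log2 −0.70, SE 0.10, edgeR adjusted p = 1.73e-06). EPCAM was at 17.1 and 13.3 CPM in shNC, against 16.6 and 16.1 CPM in parental OVCAR3, with overlapping libraries (log2 0.08, SE 0.16, edgeR adjusted p = 0.714). In this comparison resistance cannot be separated from the hairpin and its delivery. Mitochondrial messenger RNA was also lower in shNC, at 0.947% and 0.925% of counts, against 2.72% and 2.50% in parental OVCAR3. The 6 hairpin libraries also held fewer counts in genes, 20428538 to 23746370, against 31195174 to 49115255 in the other 8. Reads without a unique alignment made up 4.64% to 4.99% of each hairpin library and 2.36% to 3.22% of the others. A difference in how these libraries were made may therefore also enter each comparison of shNC with a group without a hairpin. Its part in the members' changes was not tested.

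Set directly against the libraries labelled OVCAR3-DDP, which share its cell label, shNC had higher EPCAM, VIM, ZEB1, SNAI1 and CDH2. Of 8 members tested, edgeR called 5 higher and 2 lower in shNC, where 32.9% and 36.8% of all genes tested were called higher and lower (69.7% in all). EPCAM was higher by log2 2.86 (SE 0.19), VIM by 2.06 (SE 0.10), ZEB1 by 1.36 (SE 0.13), SNAI1 by 1.07 (SE 0.19) and CDH2 by 0.97 (SE 0.10), with edgeR adjusted p of at most 2.00e-05. SNAI2 was lower by log2 −0.37 (SE 0.13, edgeR adjusted p = 0.0133), and TWIST1 by −0.39 (SE 0.15, edgeR adjusted p = 0.0231). The SNAI2 call ended without the first library labelled OVCAR3-DDP (adjusted p = 0.114) or the first shNC library (0.0910). The TWIST1 call ended without either library labelled OVCAR3-DDP (0.0966 and 0.0596) or the first shNC library (0.138). With no low-count filter neither SNAI2 nor TWIST1 was called (edgeR adjusted p = 0.119 and 0.120), and DESeq2 did not call TWIST1 (adjusted p = 0.0544). ZEB2 was not called (log2 −0.29, SE 0.16, edgeR adjusted p = 0.105), but was when only the compared groups were fitted (edgeR adjusted p = 0.0362).

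The hairpin libraries asked what lowering ADAR did to the members within one cell background. SNAI2 was the only member called, and only with sh2. It was at 44.3 and 43.9 CPM in sh2 and at 30.4 and 34.8 CPM in sh1, against 24.9 and 25.6 CPM in shNC. The 3 groups did not overlap, and their order in SNAI2 was the reverse of their order in ADAR. Mitochondrial messenger RNA had the same order as ADAR, at 0.777% and 0.726% of counts in sh2 and 0.856% and 0.867% in sh1, against 0.947% and 0.925% in shNC. Of 13 mitochondrial genes, edgeR called 8 lower with sh2 and 2 lower with sh1, and their part in the SNAI2 change was not tested. For sh2 the log2 fold change over shNC was 0.70 (SE 0.13, edgeR adjusted p = 0.00247), larger than in 87.3% of genes tested. The call ended without shNC replicate 1 (adjusted p = 0.0591) or sh2 replicate 1 (0.0513), where fewer libraries entered the fit. With sh2, 1 of 8 members was thus called, where 7.23% of 19044 genes tested were called higher and 7.04% lower (14.3% in all). That count of members is close to the background.

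With sh1, edgeR called 0 of the 8 members at an adjusted p under 0.05, where 1.96% of all genes tested were called higher and 1.85% lower (3.81% in all), and DESeq2 also called 0. At an unadjusted p under 0.05 there was 1, SNAI2, with a log2 fold change of 0.29 (SE 0.14, edgeR adjusted p = 0.241). Without sh1 replicate 1 that call was made, at an adjusted p of 0.0271. Between sh2 and sh1, edgeR and DESeq2 each called 0 of 8, where edgeR called 0.667% of all genes tested higher and 1.25% lower (1.92% in all). At an unadjusted p under 0.05 there were 2. These were SNAI2, higher in sh2 by log2 0.41 (SE 0.13, edgeR adjusted p = 0.119), and CDH2, lower in sh2 by log2 −0.26 (SE 0.11, edgeR adjusted p = 0.228). Both were called without sh1 replicate 2, at adjusted p = 0.00251 for SNAI2 and 0.0416 for CDH2.

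The other 7 members did not pass with either hairpin. CDH2 was at 154 and 142 CPM in sh2 and 171 and 177 CPM in sh1, against 152 and 147 CPM in shNC. EPCAM was at 17.2 and 17.4 CPM in sh2 and 16.1 and 21.4 CPM in sh1, against 17.1 and 13.3 CPM in shNC. VIM was at 3023 and 2899 CPM in sh2 and 2665 and 2707 CPM in sh1, against 2796 and 2846 CPM in shNC. Vimentin in CPM was therefore somewhat higher in sh2, while its TMM-scaled log2 fold change was −0.04 (SE 0.09, edgeR adjusted p = 0.827). ZEB1 was at 52.3 and 48.0 CPM in sh2 and 47.9 and 52.2 CPM in sh1, against 44.5 and 42.3 CPM in shNC. ZEB2 was at 16.5 and 18.9 CPM in sh2 and 18.2 and 19.4 CPM in sh1, against 16.4 and 16.7 CPM in shNC. These differences came to at most log2 0.13 for either ZEB gene in the fit, under their standard errors of 0.13 to 0.15 or about equal to them. SNAI1 was at 11.4 and 13.9 CPM in sh2 and 13.98 and 13.6 CPM in sh1, against 10.9 and 12.4 CPM in shNC. TWIST1 was at 16.6 and 20.7 CPM in sh2 and 20.6 and 17.9 CPM in sh1, against 15.8 and 16.7 CPM in shNC. For these 7 genes, adjusted p with edgeR ran from 0.374 upwards with sh1 and from 0.511 upwards with sh2.

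**Figure D4:**
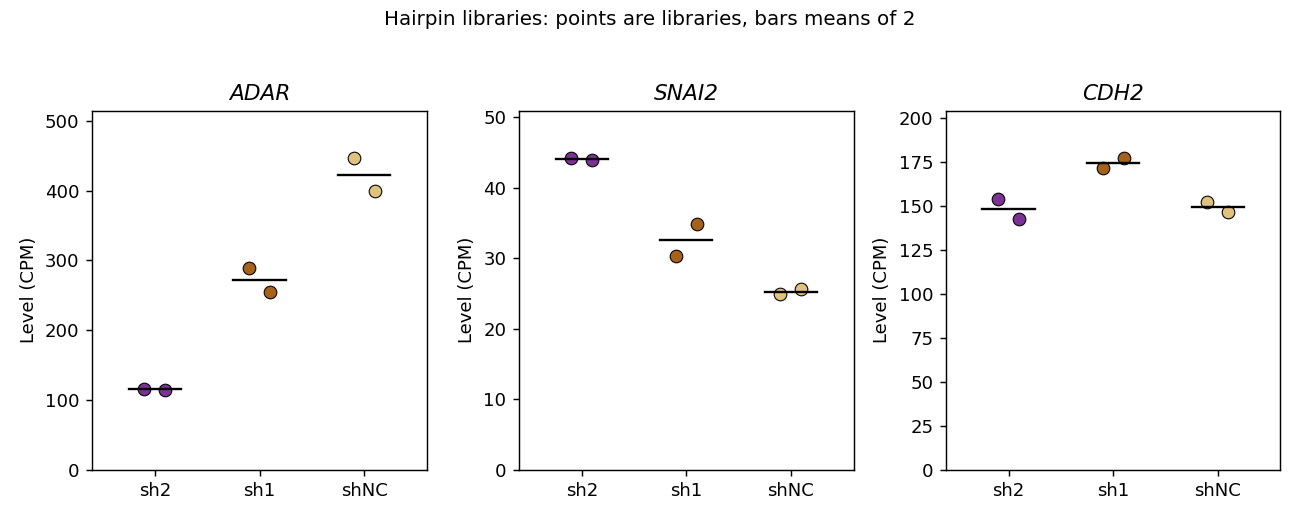
Level in CPM of ADAR, SNAI2 and CDH2 in the sh2, sh1 and shNC libraries, 1 point per library and a bar at the mean of 2. ADAR is lowest in sh2 and highest in shNC, and SNAI2 the other way round.

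The parental lines, labelled WT, themselves differed in all 8 members tested. Parental OVCAR3 had more CDH2, SNAI2, SNAI1, TWIST1 and EPCAM than parental A2780, and less VIM, ZEB2 and ZEB1. edgeR thus called 5 higher and 3 lower, where 32.3% and 33.7% of all genes tested were called higher and lower (66% in all). The largest difference was in CDH2, at 276 and 280.2 CPM in parental OVCAR3, against 14.6 and 14.7 CPM in parental A2780 (log2 4.29, SE 0.10, edgeR adjusted p = 1.09e-12). VIM was lower in parental OVCAR3 by log2 −2.43 (SE 0.11), ZEB2 by −1.54 (SE 0.16) and ZEB1 by −1.01 (SE 0.13), with edgeR adjusted p of at most 9.73e-06. N-cadherin and vimentin, both counted as mesenchymal, thus had their high levels in different lines.

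Genes that act beside the members were counted from lists chosen with earlier results of these data known. A list can hold genes of opposed action, inhibitors among them, so its counts give no direction of a pathway. In A2780-DDP against parental A2780, 18% of all genes tested were called higher and 17.3% lower, and the counts are to be read against these shares. Of the lists, 7 of 14 other EMT transcription factors tested were higher and 3 lower, with a median log2 fold change of 0.65. The ID genes ID1, ID2 and ID3 were among the 7 (log2 1.95, 2.76 and 3.06). Among them FOXC1, a forkhead factor, averaged 292 CPM in A2780-DDP and 26.0 CPM in parental A2780 (log2 3.50, SE 0.09), and ID3, an inhibitor of basic helix-loop-helix factors, 501 and 60.5 CPM in the same order (log2 3.06, SE 0.13). The basic helix-loop-helix factor TCF4 averaged 0.0602 CPM in A2780-DDP and 9.32 CPM in parental A2780 (log2 −7.20, SE 0.30). Of 16 TGF-beta pathway genes, 2 were higher and 8 lower (median −0.58). The ligand TGFB2 averaged 5.88 CPM in A2780-DDP and 18.0 CPM in parental A2780 (log2 −1.60, SE 0.18). Each of these passed with edgeR at an adjusted p of at most 1.69e-05.

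Beside the same 18% and 17.3% of all genes, mesenchymal partners in A2780-DDP had 3 of 17 higher and 6 lower (median 0.02, or 0 with genes at 0 counts set to their bound). The smooth muscle actin ACTA2 averaged 6.55 CPM in A2780-DDP and 543 CPM in parental A2780 (log2 −6.36, SE 0.12), while TAGLN, which binds actin, averaged 1054 CPM in A2780-DDP and 521 CPM in parental A2780 (log2 1.03, SE 0.10). Epithelial partners came to 3 of 20 higher and 5 lower (median −0.44). AP1M2, a sorting adaptor of epithelial cells, averaged 45.4 CPM in A2780-DDP and 102 CPM in parental A2780 (log2 −1.15, SE 0.11). Other cadherins came to 4 of 13 higher and 0 lower, but none of those called reached 5 CPM. Of the catenins and partners that anchor cadherins, 3 of 7 were higher and 1 lower (median 0.20), with alpha-catenin (CTNNA1) at 882 CPM in A2780-DDP and 524 CPM in parental A2780 (log2 0.76, SE 0.08). Of 14 other intermediate filament genes, 3 were higher and 6 lower (median −0.20, or −0.04 at the bounds), with nestin (NES) at 80.6 CPM in A2780-DDP and 274 CPM in parental A2780 (log2 −1.75, SE 0.09).

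In libraries labelled OVCAR3-DDP, against parental OVCAR3, 33.4% of all genes tested were called higher and 35.2% lower. Of the lists, 10 of 17 mesenchymal partners were lower and 5 higher (median −1.70), and 10 of 20 epithelial partners were lower and 6 higher (median −0.67). Collagen COL5A1 averaged 0.898 CPM in libraries labelled OVCAR3-DDP and 1515 CPM in parental OVCAR3 (log2 −10.89, SE 0.22), and the matricellular protein SPARC 83.4 and 0.108 CPM in the same order (log2 9.56, SE 0.29). P-cadherin (CDH3) averaged 18.0 CPM in libraries labelled OVCAR3-DDP and 0.771 CPM in parental OVCAR3 (log2 4.37, SE 0.23). The tetraspan protein MAL2 was at 0 counts there, at least 1604-fold lower than in parental OVCAR3. T-cadherin (CDH13), also at 0 counts, was at least 706-fold lower, and of 13 other cadherins tested 5 were higher and 4 lower (median 0.05). Of other intermediate filaments 4 of 14 were higher and 8 lower (median −1.84). Keratin KRT19 was at 0 counts and at least 2236-fold lower, while neurofilament NEFL, with 0 counts in parental OVCAR3, was at least 464-fold higher.

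Other EMT transcription factors in libraries labelled OVCAR3-DDP came to 7 of 14 higher and 5 lower (median 0.21), where 68.5% of all genes tested were called. The share called in the TGF-beta and catenin lists was below that. ID2 averaged 138 CPM there and 5.57 CPM in parental OVCAR3 (log2 4.46, SE 0.13), and FOXC1 245 and 15.5 CPM in the same order (log2 3.80, SE 0.10). Of 16 TGF-beta pathway genes 2 were higher and 7 lower (median −0.11), with SMAD2, which carries the signal to the nucleus, at 44.9 CPM in libraries labelled OVCAR3-DDP and 229 CPM in parental OVCAR3 (log2 −2.53, SE 0.09). Of the catenin group 2 of 7 were higher and 2 lower (median 0.07). Beta-catenin (CTNNB1) averaged 449.9 CPM in libraries labelled OVCAR3-DDP and 229.7 CPM in parental OVCAR3 (log2 0.79, SE 0.09), and CTNNA1 158 and 535 CPM in the same order (log2 −1.94, SE 0.08). A list of 10 neural markers shares NEFL, NEFM and INA with the intermediate filament list. It summed to 86.3 and 91.0 CPM in libraries labelled OVCAR3-DDP and 8.11 and 8.35 CPM in parental OVCAR3. Of its 7 genes tested, 4 were higher and 3 lower, where 33.4% and 35.2% of all genes tested were. In A2780-DDP that neural list summed to 776 and 855 CPM, against 265 and 267 CPM in parental A2780. There 5 of 7 were higher and 1 lower, where 18% and 17.3% of all genes tested were. The part of these markers in the members' changes was not tested.

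In shNC against parental OVCAR3, 25.1% of all genes tested were called higher and 26.5% lower (51.5% in all), and the share of epithelial partners called was near that. Of the lists, 9 of 17 mesenchymal partners were higher and 3 lower (median 0.63), among them fibronectin (FN1) at 2762 CPM in shNC and 249 CPM in parental OVCAR3 (log2 3.66, SE 0.17). Of 16 TGF-beta pathway genes 6 were higher and 6 lower (median 0.12), with the ligand TGFB1 at 574 CPM in shNC and 174 CPM in parental OVCAR3 (log2 1.91, SE 0.12). Of the catenin group 5 of 7 were higher and 0 lower (median 0.70), with plakoglobin (JUP) at 585 CPM in shNC and 237 CPM in parental OVCAR3 (log2 1.49, SE 0.12). Epithelial partners came to 6 of 20 higher and 5 lower (median −0.09, or 0 at the bounds). The membrane protease PRSS8 averaged 15.4 CPM in shNC and 0.860 CPM in parental OVCAR3 (log2 4.35, SE 0.25). Other EMT transcription factors came to 6 of 14 higher and 4 lower (median −0.03), other cadherins to 2 of 14 higher and 5 lower (median −0.52, or −0.03 at the bounds), and other intermediate filaments to 7 of 14 higher and 2 lower (median 0.41).

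**Figure D5:**
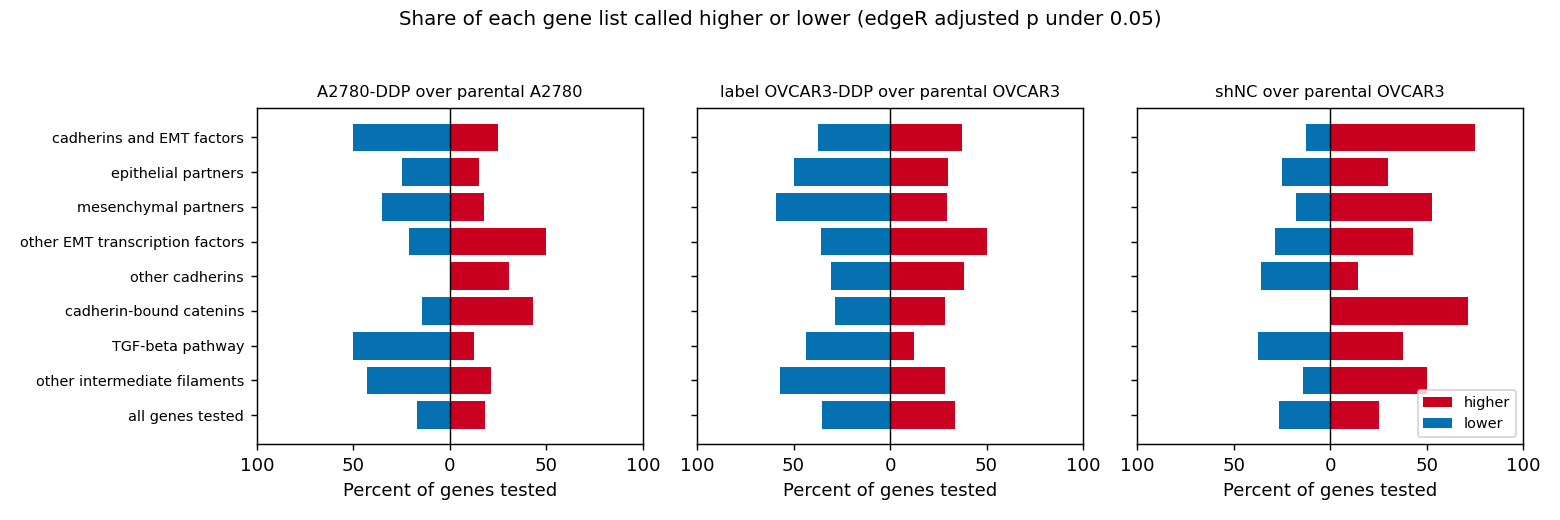
Percent of the genes tested in each list that edgeR called higher (red) or lower (blue) at an adjusted p under 0.05, with all genes tested in the last row. In A2780-DDP 7 of 14 other EMT transcription factors, ID1, ID2 and ID3 among them, were higher, where 18% of all genes tested were.

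With sh2 against shNC, 7.23% of all genes tested were called higher and 7.04% lower. Of the lists, 5 of 12 other EMT transcription factors were higher and 0 lower (median 0.33), among them ID3 at 38.2 CPM in sh2 and 21.8 CPM in shNC (log2 0.70, SE 0.14). Of 14 mesenchymal partners 0 were higher and 5 lower (median −0.39), with COL5A1 at 1368 CPM in sh2 and 2556 CPM in shNC (log2 −1.01, SE 0.10). Of 15 epithelial partners 1 was higher and 3 lower (median −0.11), with the tight junction protein CLDN4 at 19.1 CPM in sh2 and 43.8 CPM in shNC (log2 −1.30, SE 0.16). Of 15 TGF-beta pathway genes 2 were higher and 3 lower (median −0.09), with the ligand TGFB1 at 380.0 CPM in sh2 and 574 CPM in shNC (log2 −0.70, SE 0.11). Of 13 other intermediate filaments 0 were higher and 3 lower (median −0.23), of 5 catenin genes 0 and 1 (median −0.02), and of 7 other cadherins none was called by edgeR (median −0.37). The median over all genes tested was 0.00. With sh1, where 1.96% of all genes tested were called higher and 1.85% lower, the other EMT transcription factors had 3 of 12 higher and 0 lower (median 0.15), ID3 again among them at 38.3 CPM in sh1 and 21.8 CPM in shNC (log2 0.74, SE 0.14). The mesenchymal partners had 0 higher and 2 lower of 14 (median −0.18), S100A4 at 245 CPM in sh1 and 358 CPM in shNC being one (log2 −0.63, SE 0.11). Other intermediate filaments had 0 higher and 2 lower of 13 (median −0.18), and edgeR called none of 15 epithelial partners, 7 other cadherins, 5 catenin genes and 15 TGF-beta pathway genes.

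For each member whose highest group mean reached 5 CPM, the genes with the most similar pattern were found by Pearson's r of log2(CPM + 1) over the 14 libraries, among 13337 genes that reached 10 CPM in some group. These are descriptions, since the libraries fall into 7 groups of 2 and share their depth and scaling. SNAI2 was most like KLF12 (r = 0.996), PPARG (0.992) and ULBP3 (0.989). PPARG averaged 7.95 CPM in A2780-DDP and 12.5 CPM in parental A2780, and 44.1 CPM in libraries labelled OVCAR3-DDP and 23.8 CPM in parental OVCAR3. ZEB2 was most like PSD3 (0.964), which averaged 0.212 CPM in A2780-DDP and 65.4 CPM in parental A2780, then OAZ2 (0.959) and KIRREL1 (0.946). EPCAM was most like IFI16 (0.986), TLR6 (0.984) and DPYD (0.981). IFI16 averaged 0.977 CPM in A2780-DDP and 15.4 CPM in parental A2780, and 0.0724 CPM in libraries labelled OVCAR3-DDP and 45.0 CPM in parental OVCAR3. SNAI1 was most like SDHAF1 (0.960), TWIST1 like AGAP2 (0.943), ZEB1 like NBR1 (0.985), and CDH2, after its antisense gene, like ANKH (0.994).

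Reads from a gene and from an antisense gene across its exons could not be told apart, as the strand setting is not given in the sources used here. VIM-AS1, antisense to VIM, had 33.3% to 40.7% of the VIM count in the 14 libraries, and ENSG00000234961, also antisense to it, 25.8% to 28.4%. Their r with VIM was 0.996 and 0.999. ENSG00000227279, antisense to CDH2, had 5.26% to 12.9% of its count (r = 0.997), and ZEB1-AS1 17.0% to 47.8% of that of ZEB1 (r = 0.714). ZEB2-AS1 had 2.84% of the ZEB2 count at most. The levels of VIM, CDH2 and ZEB1 are therefore those of the reads assigned to each gene, without the reads counted to its antisense genes. Whether part of the antisense counts came from the gene itself was not tested.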

How the data were processed

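Total RNA had been extracted with Trizol, per the labels' protocols. The authors deposited raw counts per gene for each of the 14 libraries. Per the submitters' processing notes, the tools included HTSeq 2.0.3, STAR 2.7.8a, SAMtools and FastQC 0.11.9, with the build GRCh38.p13. Which annotation release, strand setting and read layout applied is not given in the sources used here. The 5 summary lines of each count table were left out of library sizes, and reads in no gene made up 48.7% to 50.0% of a library. Gene names, positions and exon lengths come from GENCODE 29, and sequences from RefSeq GRCh38.p14.

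Counts were fitted with edgeR 4.0.16 in R 4.3.3 (TMM scaling, filterByExpr with a minimum count of 10, quasi-likelihood test, Benjamini-Hochberg adjustment over all genes tested, threshold 0.05). The 4 groups without a hairpin shared 1 fit, the 3 hairpin groups another, and the comparisons of shNC with groups without a hairpin used all 14 libraries. Fold changes follow TMM scaling and can differ from a ratio of CPM: the members' median offset, fit less CPM, was log2 −0.18 for the libraries labelled OVCAR3-DDP over parental OVCAR3 and 0.29 for shNC over the libraries labelled OVCAR3-DDP. Scripts were tested on simulated data.

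The members and lists were chosen with earlier results of these data known. All 10 members are named. Of each list and comparison, up to 2 called genes with the largest change in each direction were eligible to be named if they reached 5 CPM in the higher group. Alternatives were DESeq2 1.42.0, other scalings and count filters, a fold of 2 or more, the replicate number as a block, and leaving out 1 library at a time. Tables and figures were made with Python 3.11.15.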

Additional observations from a re-analysis of the deposited data

Results flagged for a closer look

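For 6 of the 8 members tested the change in the 2 lines differed by a test of the difference itself (edgeR). The difference is the OVCAR3 log2 fold change less the A2780 log2 fold change. By the same test 53.8% of all 23031 genes tested were called. ZEB2 differed by 7.69, SNAI1 by −2.06, TWIST1 by −1.71, EPCAM by −1.18 and VIM by −0.52. With shNC in place of the libraries labelled OVCAR3-DDP the sign turned for EPCAM, at 1.72, and for VIM, at 1.59. The VIM call was also lost without parental A2780 replicate 1 (edgeR adjusted p = 0.0573). For SNAI2 the fitted difference was 11.18, which depends on the prior count because A2780-DDP had 0 SNAI2 counts. These values rest on the libraries labelled OVCAR3-DDP. Their ovarian carcinoma markers, EPCAM among them, summed to 22.1 and 23.2 CPM, against 1726 and 1848 CPM in parental OVCAR3. The part of that gap in these values was not tested.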

How the results depend on the processing

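Of 920 values of single genes under an alternative, 861 kept their direction and their side of the threshold, 12 lost the call, 15 gained it and 32 changed sign. Requiring a fold of 2 or more lowered the genes called to 10055 from 15784 for the libraries labelled OVCAR3-DDP, to 3507 from 8123 for A2780-DDP, to 9464 from 15203 between parental lines, to 83 from 725 for sh1, to 266 from 2717 for sh2, to 55 from 365 for sh2 over sh1, and to 6682 from 12463 for shNC over parental OVCAR3. Members called then came to 3, not 6, in the libraries labelled OVCAR3-DDP, 0, not 1, with sh2, and 4, not 7, for shNC over parental OVCAR3 and over the libraries labelled OVCAR3-DDP. A filter of 5 CPM gave 10268 genes for the libraries labelled OVCAR3-DDP, 9989 between parental lines and 10343, against 16861, for shNC over the libraries labelled OVCAR3-DDP, with fewer genes tested. Fitting only the compared groups gave 445 genes for sh1, 5874 for sh2 and 192 for sh2 over sh1, where no count filter gave 690 and DESeq2 642. Leaving out 1 library gave 89 to 4512 genes and 0 to 1 members for sh1, 303 to 1386 and 0 to 1 for sh2, and 58 to 4286 and 0 to 2 for sh2 over sh1.

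Most signs that turned belonged to changes near 0. The line difference of CDH2 was 0.0076 with DESeq2 size factors, 0.0084 with DESeq2, 0.091 with upper-quartile scaling, 0.022 with no filter, 0.077 at 5 CPM and 0.035 with all 14 libraries, and that of ZEB1 was 0.028 with upper-quartile scaling and 0.012 at 5 CPM. With shNC in place of the libraries labelled OVCAR3-DDP it was 1.00 for CDH2, 1.33 for ZEB1, 1.59 for VIM and 1.72 for EPCAM, which were not small. SNAI1 with sh2 was −0.015 with upper-quartile scaling and −0.011 with all 14 libraries. Leaving out 1 library, the line difference ran from −0.17 to 0.082 for ZEB1 and −0.055 to 0.042 for CDH2. With sh2 over shNC the log2 fold change ran from −0.076 to 0.26 for EPCAM, −0.075 to 0.24 for TWIST1, −0.14 to 0.14 for SNAI1 and −0.10 to 0.084 for ZEB2. With sh2 over sh1 it ran from −0.32 to 0.068 for EPCAM, −0.24 to 0.074 for TWIST1 and −0.090 to 0.038 for ZEB1, and for shNC over parental OVCAR3 from −0.11 to 0.24 for EPCAM. The cause was not tested.

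Same-numbered libraries showed no clear pairing. Their deviations correlated at −0.246 (A2780-DDP and parental) and −0.158 (libraries labelled OVCAR3-DDP and parental OVCAR3). Over all compared groups the values ran from −0.310 (sh2 and sh1) to 0.0629 (shNC and libraries labelled OVCAR3-DDP). Whether libraries of unlike number were prepared together is not given. A replicate block gave 8045 genes called for A2780-DDP and 15564 for the libraries labelled OVCAR3-DDP, with 6 members each. Crossing the numbers gave 7427 and 15753 genes. For sh2 over sh1 it gave 1121 genes, against 365, and 1 member, SNAI2 (edgeR adjusted p = 0.0481). With 2 libraries a group, the spread is known only roughly, and CDH1 and GRHL2 were below what this depth can compare. The mean chi-square per gene between the 2 libraries was 31.5 in parental OVCAR3, 21.1 in sh1 and 18.0 in A2780-DDP. In the other groups it was 3.88 to 5.01. Groups in a fit share their estimate of the spread, so standard errors and p-values may be too small where these 3 groups enter.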
